A study of Rattus norvegicus with 91 samples.

Results

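The 6 genes Nfkbia, Zfp36, Dusp1, Tsc22d3, Anxa1 and Il1rn encode proteins that restrain inflammation and that glucocorticoids are known to induce in various cells. They were followed in rat liver through every probe set whose single annotated symbol is among these names. That gave 6 of the 10620 genes named by a single symbol and 17 of the 24722 probe sets, on 2 Affymetrix array designs. The design used for the short course carried 10 of them among 8799 probe sets: 2 for Nfkbia, 2 for Zfp36, 3 for Dusp1, 2 for Anxa1, 1 for Il1rn and 0 for Tsc22d3. The long course design carried 7 among 15923, with 2 for Dusp1 and 1 for each of the other genes. All 10 short-course probe sets and 6 of the 7 long-course ones passed the filter on low signal and were tested, and the Il1rn probe set of the long course fell under it.

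A glucocorticoid enters the cell and binds its receptor, which then moves to the nucleus and changes transcription. Part of its anti-inflammatory action runs through induced inhibitor proteins that act at successive steps of inflammatory signalling. Nfkbia and Tsc22d3 proteins hold back NF-kappaB, Dusp1 switches off MAP kinases, Zfp36 marks cytokine mRNAs for decay, and Anxa1 and Il1rn act outside the cell. Several of these genes are also induced by the inflammatory signals they restrain.

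Livers came from Wistar rats labelled with methylprednisolone, a synthetic glucocorticoid, at 50 mg/kg. The short course comprised 16 times of 0.25, 0.5, 0.75, 1, 2, 4, 5, 5.5, 6, 7, 8, 12, 18, 30, 48 and 72 h, with 3 arrays each except 2 at 2, 5, 12, 30 and 72 h, and 4 control arrays (Ctr). The long course comprised 6, 10, 13, 18, 24, 36, 48, 72, 96 and 168 h and Ctr, with 4 arrays each. Ctr arrays are labelled time 0 with the same dose wording, and the labels name no vehicle, route, schedule, age or sex. Since they leave it unstated whether arrays of a time came from separate animals, every p-value measures only how these arrays spread, possibly for technical reasons. Precision is limited by how few arrays each time has. The 6 genes and the pathway lists below were chosen with earlier results of these data known. Shares over all probe sets printed beside them are therefore descriptions, not tests. Where treated arrays are said to lie above or below all Ctr arrays, the share of all probe sets that did so is not given. Such counts are descriptions only. Because each course had its own scale, it was compared with its own Ctr arrays, and no level was set against the other course. Changes are differences of log2(signal + 32), treated minus Ctr, given ± standard error, and folds are ratios on that same scale.

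In the liver RNA, 10 of 11 hepatocyte markers were measured in each course. Their summed signal per short-course array was 67528 to 144003 at 0.25-0.75 h, 84893 to 139094 at 4-8 h and 67873 to 228209 in Ctr. The medians were 82353, 101630 and 144552. The median change of the 10 markers was -0.56 at 0.25-0.75 h, with 0 called, and -0.18 at 4-8 h, with 1 called higher and 2 lower. Tat, the liver enzyme classically induced by glucocorticoids, rose by 0.79 ± 0.23 in the 4-8 h window of the short course (adjusted p = 0.0108). At single times of that course Tat passed only at 5.5 h (0.96 ± 0.32, adjusted p = 0.0438). Its rise in the 6-18 h window of the long course was 1.41 ± 0.27 (adjusted p = 4.24e-04). In the short course, 9 arrays had a mean correlation with the other arrays under 0.9 over the probe sets tested. They were Ctr replicates 1 and 3, replicate 1 of 2 h, replicate 2 of 5 and 72 h, and replicate 3 of 0.5, 4, 7 and 8 h. In the long course only 96 h replicate 3 fell under 0.9. The median of all probe sets itself shifted by at most 0.16, at 8 h of the short course, and members are read beside it. The windows and pathway lists are also given without these arrays, and without them Tat was not called higher at 4-8 h of the short course. In bulk liver, fewer cells of a type and less RNA per cell cannot be told apart.

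All 10 short-course probe sets changed over time by the moderated F test, where 33.6% of the 6118 probe sets tested did. Every member was above Ctr at 0.5 h: 10 of 10 probe sets, from all 5 genes, passed the threshold of adjusted p under 0.05 as higher, against 5.95% of all probe sets. The median change of the 10 was 1.88 at 0.5 h, beside 0.11 over all probe sets. The first rises came sooner, with 3 of 10 probe sets, of Nfkbia and Zfp36, called higher at 0.25 h (0.163% of all) and the same number at 0.75 h (0.114%). At 1 h the 4 probe sets of Nfkbia and Zfp36 were called (0.981% of all). All 5 genes were again represented at 2 h, with 8 probe sets (8.78%), and at 4 h, with 8 (10.5%). For 5 h the count was 3 (4.56%), for 5.5 h it was 8 (8.63%) and for 6 h it was 2 (7.40%). Nfkbia, Zfp36 and Il1rn made up the 3 of 7 h (4.69%) and the 4 of 8 h (8.24%). From 12 h on no member was called, although at 12 h Nfkbia still stood at 1.41 and Il1rn at 2.28. By limma, unadjusted p was under 0.05 for 3 of 10 probe sets of 12 h, 1 of 18 h and 1 of 72 h, and for 0 of 30 and 48 h. Of these 56 calls at single times, 16 held whichever 1 array was left out and 40 ended without some array. Without the 9 arrays named above 29 calls were made, 4 of them at 0.5 h, for Nfkbia and Zfp36, and 0 at 5, 7 and 8 h.

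**Figure D1:**
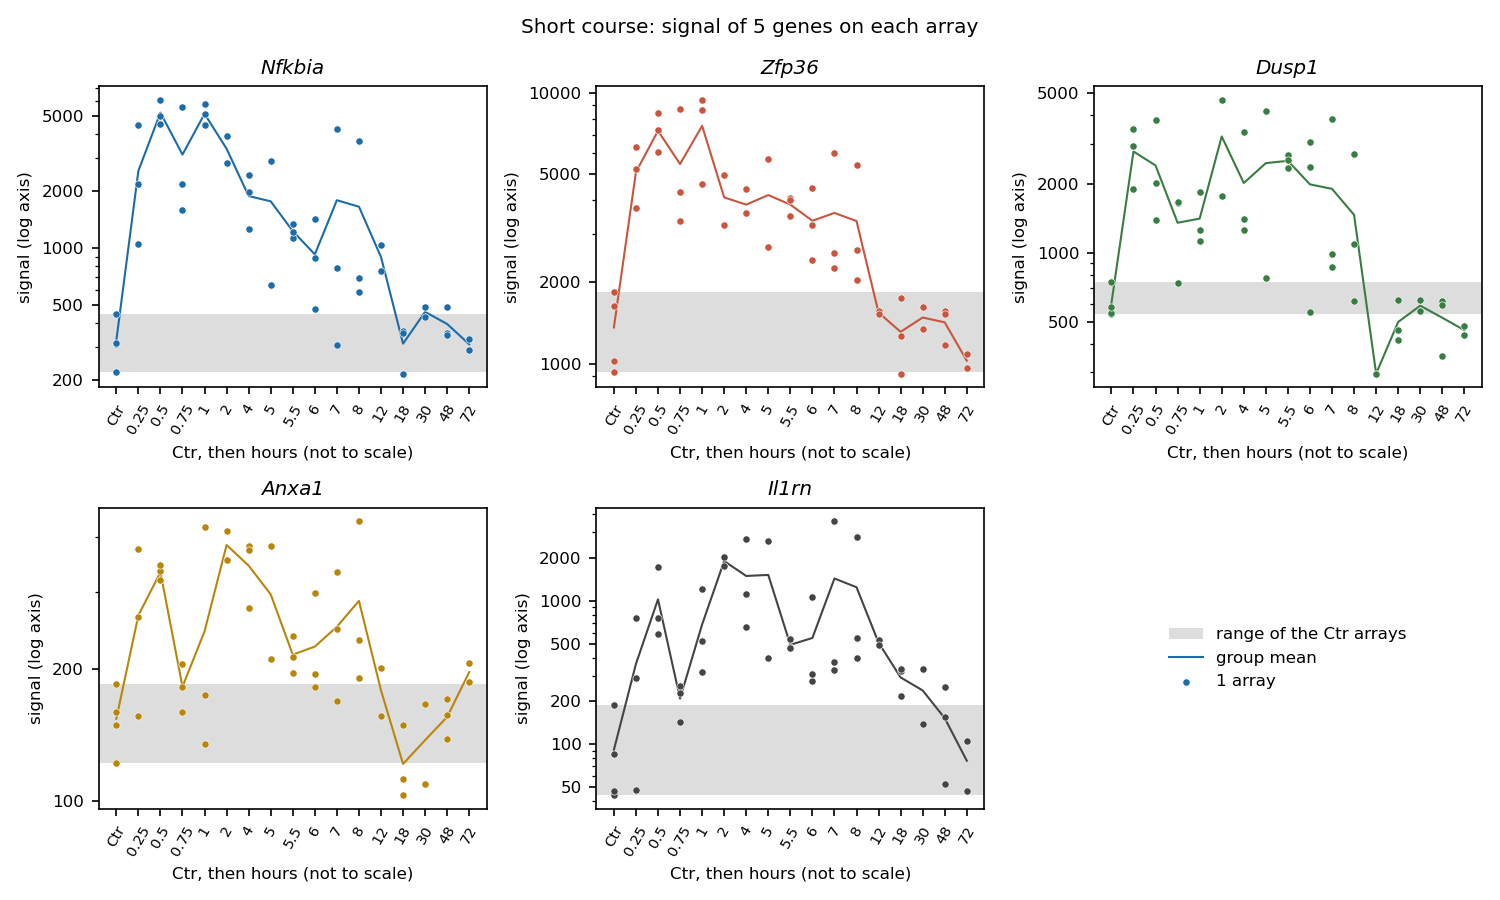
Signal on each short-course array (log axis) of the brightest tested probe set of 5 genes, by hours (not to scale) after Ctr; points are arrays, lines join group means and the grey band is the range of the 4 Ctr arrays. At 0.5 h the arrays of all 5 genes lie above the band, and from 18 h most arrays lie in or near it.

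Averaged over windows, 7 of 10 probe sets, from Nfkbia, Zfp36 and Dusp1, were higher at 0.25-0.75 h than in Ctr (2.47% of all probe sets, median change 1.65 beside 0.08 over all). At 4-8 h, 9 probe sets from all 5 genes were higher (16.4% of all, median 1.39 beside 0.10), where 10.5% of all probe sets were lower. At 30-72 h no member probe set was called, with 0 at unadjusted p under 0.05, and 0.0817% of all were called higher and 0.0163% lower. Set against 4-8 h, 9 of 10 stood lower at 30-72 h (21.5% of all, median -1.42 beside -0.06). Without the 9 arrays named above, 3 probe sets were called at 0.25-0.75 h, of Nfkbia and Zfp36, and 3 at 4-8 h, of Nfkbia, Zfp36 and Il1rn, while 8 stood lower at 30-72 h than at 4-8 h. Neutrophil markers moved in the same windows: of 5 measured, 2 were called higher at 0.25-0.75 h and 4 at 4-8 h, S100a8 by 2.94 and 2.98, S100a9 by 2.05 and 2.03. Their summed signal ran from 7220 to 23573 at 0.25-0.75 h, from 12066 to 21400 at 4-8 h and from 1239 to 25790 in Ctr, and their part in the members' changes was not tested. Of 5 endothelial markers, Lyve1 (1.63, adjusted p = 1.11e-06) and Pecam1 (0.57, adjusted p = 0.00325) were higher and Kdr (-1.33, adjusted p = 3.24e-04) lower at 4-8 h, and their summed signal was 2217 to 3697 at 4-8 h and 1344 to 1694 in Ctr. Of 4 Kupffer cell and macrophage markers, 1 was higher and 1 lower.

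In the long course, 5 of 6 tested probe sets changed over time, where 23.8% of the 11106 probe sets tested did, and Anxa1 did not pass (adjusted p = 0.186). Against Ctr, Nfkbia, Zfp36 and Tsc22d3 were called higher at 6 h (2.80% of all probe sets). Dusp1 and Tsc22d3 were called at 10 h (4.07%) and at 24 h (0.747%), each by 1 probe set. Tsc22d3 was the 1 member called for 13 h (2.75%), 18 h (2.52%) and 36 h (2.40%). The 48 h arrays gave 3 calls (2.26%), those of 72 h gave 5 (2.81%), those of 96 h 3 (3.56%) and those of 168 h 4 (3.39%). The only lower call was Anxa1 at 96 h (4.54% of all). Averaged over windows, 3 of 6 were higher and 1 lower at 6-18 h (4.64% and 4.67% of all), and 5 higher and 1 lower at 72-168 h (4.81% and 6.01%). Between windows, the 2 Dusp1 probe sets and Tsc22d3 stood higher at 72-168 h than at 6-18 h (9.07% of all). The median change of the 6 probe sets was 0.57 at 6-18 h and 1.06 at 72-168 h, beside -0.03 over all probe sets in both windows. Of the 26 calls at single times, 20 held whichever 1 array was left out.

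**Figure D2:**
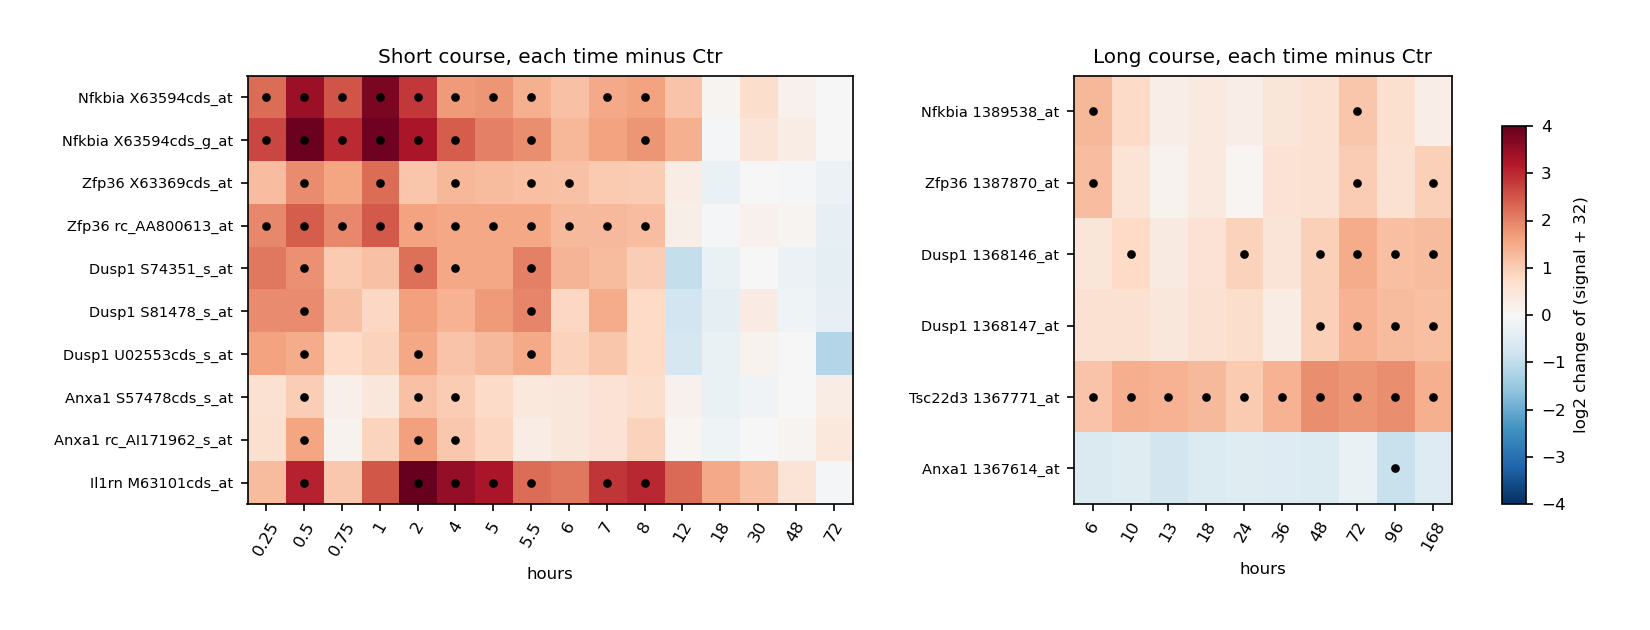
Change of log2(signal + 32) from Ctr of each tested probe set at each time, with the short course on the left and the long course on the right; dots mark adjusted p under 0.05. Dots in the short course run from 0.25 to 8 h, and those of Tsc22d3 in the long course cover all 10 times.

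Nfkbia encodes IkappaB-alpha, which binds NF-kappaB in the cytoplasm and is itself made anew when NF-kappaB is active. The gene lies at chr6:78593844-78597307 of GRCr8. Its RefSeq promoter window, 250 bases before to 50 after the start at chr6:78597023-78597322 on the minus strand, is printed because it holds 2 matches to the NF-kappaB consensus, GGGA and CC around 4 free bases, in capitals. They are GGGAAGTACC at 214 to 205 bases before the start and, on the opposite strand, GGAAATTCCC at 31 to 22 bases before it.
Nfkbia: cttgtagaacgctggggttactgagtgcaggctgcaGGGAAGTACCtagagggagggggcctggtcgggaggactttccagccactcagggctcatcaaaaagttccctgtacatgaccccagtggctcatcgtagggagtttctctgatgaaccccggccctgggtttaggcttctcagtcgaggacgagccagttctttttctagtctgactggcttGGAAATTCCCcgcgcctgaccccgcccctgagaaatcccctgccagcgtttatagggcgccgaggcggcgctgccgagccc
The motif, searched on both strands, was found in 19.3% of the 33469 promoter windows of the same length, among them those of Nfkbia, Dusp1 and Anxa1 of the 6 genes, and a match is a description of letters only.

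On the brightest short-course probe set, X63594cds_g_at, Nfkbia signal was 1043, 4463 and 2167 at 0.25 h, 4977, 6090 and 4536 at 0.5 h and 5135, 4466 and 5782 at 1 h, against 311, 447, 221 and 313 in Ctr. Every array at these 3 times lay above the highest Ctr array. The change was 3.91 ± 0.59 at 0.5 h, a 15.0-fold difference (adjusted p = 7.64e-05), and 3.89 ± 0.59 at 1 h (adjusted p = 2.74e-04). Both calls held without any 1 array, as did those of the second probe set, X63594cds_at (3.43 at 0.5 h and 3.75 at 1 h). The calls at 0.25 h (2.67, adjusted p = 0.0409) and 0.75 h (2.97, adjusted p = 0.0214) ended without 0.25 h replicate 2 (adjusted p = 0.316) or 0.75 h replicate 1 (adjusted p = 0.236). Signal was lower later, at 1252, 1973 and 2420 at 4 h and 1345, 1131 and 1208 at 5.5 h, but it did not fall evenly. It ran from 636 to 2892 at 5 h, and group means were 924 at 6 h, 1788 at 7 h and 1653 at 8 h. At 7 h the arrays read 308, 783 and 4274, so that only replicate 3, among the 9 arrays of low correlation, stayed near the early level. At 18 h they read 365, 216 and 353, within or below the Ctr range.

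Averaged over the window, Nfkbia stood 3.18 ± 0.47 above Ctr at 0.25-0.75 h (adjusted p = 8.52e-05) and 1.84 ± 0.43 at 4-8 h (adjusted p = 0.00195). The fall between these windows, -1.35 ± 0.32, passed (adjusted p = 0.00311), as did that of X63594cds_at (-1.19) and of the brightest Zfp36 probe set, the 3 member probe sets lower at 4-8 h than at 0.25-0.75 h (8.79% of all). Without the 9 low-correlation arrays the 4-8 h change of X63594cds_g_at was 1.09 and was not called (adjusted p = 0.112), whereas the fall was -1.90 (adjusted p = 1.96e-05). The probe sets X63594cds_at and X63594cds_g_at moved alike over the 17 group means (r = 0.989). Of the 16 treated times, 13 and 11 had every array above the highest Ctr array, a count given without the share of all probe sets that did so.

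Long-course Nfkbia signal on 1389538_at was 255, 228, 235 and 347 at 6 h and 225, 311, 173 and 202 at 72 h, against 81.9, 89.1, 99 and 71.6 in Ctr. All arrays of both times lay above Ctr, as did those of 10 and 48 h, whereas at 13, 18, 24 and 36 h the groups overlapped. The change was 1.33 ± 0.26 at 6 h (adjusted p = 7.37e-04) and 1.12 ± 0.26 at 72 h (adjusted p = 0.0049), and both held without any 1 array. Between them Nfkbia stood at 0.26 at 13 h and 0.27 at 24 h, neither called. At 18 h it was lower than at 6 h, with a difference of -0.94 ± 0.26 (adjusted p = 0.0227), a comparison chosen after the values were seen in which Nfkbia and Zfp36 were the members called lower (2.87% of all). That call ended without 18 h replicate 3 (adjusted p = 0.0899). The windows 6-18 h (0.69, adjusted p = 0.0247) and 72-168 h (0.67, adjusted p = 0.0312) were called, and both ended without Ctr replicate 4 (adjusted p = 0.0974 and 0.0909), as the second did without 96 h replicate 3 (0.62, adjusted p = 0.0518).

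Zfp36 encodes tristetraprolin, which binds AU-rich elements in mRNAs of cytokines and chemokines and leads to their decay. It lies at chr1:92796628-92799108 of GRCr8. On rc_AA800613_at its signal was 3754, 6282 and 5245 at 0.25 h, 7280, 8379 and 6036 at 0.5 h and 8594, 4614 and 9419 at 1 h, against 1636, 1844, 934 and 1021 in Ctr. No treated array at these times overlapped Ctr. The rise was 2.43 ± 0.35 at 0.5 h (adjusted p = 3.69e-05) and 2.44 ± 0.35 at 1 h, a 5.42-fold difference (adjusted p = 9.28e-05). Zfp36 was called at each of the 11 times from 0.25 to 8 h by this probe set, more times than any other short-course member probe set. The calls at 0.5, 1, 4 and 5.5 h held without any 1 array, and each of the other 7 ended without 1 array of its own time. At 8 h, with 2031, 2626 and 5415, the call (1.22, adjusted p = 0.0188) ended without replicate 3 (adjusted p = 0.215). By 12 h the arrays read 1561 and 1523 and lay within the Ctr range.

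The second Zfp36 probe set, X63369cds_at, followed the first over the 17 group means (r = 0.983) and was called at 5 times. By rc_AA800613_at the rise was 2.09 ± 0.27 at 0.25-0.75 h (adjusted p = 2.22e-05) and 1.41 ± 0.25 at 4-8 h (adjusted p = 1.17e-04), and both calls held without the 9 low-correlation arrays (2.05 and 1.09). The calls of X63369cds_at in these windows (1.56 and 1.17) ended without them (1.38 and 0.80, adjusted p = 0.0987 and 0.171). All 17 arrays at 4-8 h lay above the highest Ctr array for both probe sets. The fall between the windows was -0.68 ± 0.19 (adjusted p = 0.0103).

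Long-course Zfp36 signal on 1387870_at was 662, 569, 654 and 983 at 6 h, 475, 566, 680 and 707 at 72 h and 698, 530, 441 and 687 at 168 h, against 298, 281, 228 and 339 in Ctr. Each of these groups lay wholly above Ctr. The change was 1.22 ± 0.21 at 6 h (adjusted p = 2.00e-04), 1.00 ± 0.21 at 72 h (adjusted p = 0.00237) and 0.95 ± 0.21 at 168 h (adjusted p = 0.00288), and all 3 calls held without any 1 array. Between 6 and 72 h it was close to Ctr at 13 h (0.15) and 24 h (0.09). At 10, 36 and 48 h every array again lay above the highest Ctr array, with 0.60 at 48 h, but none of these times was called. The fall at 18 h against 6 h was -0.84 ± 0.21 (adjusted p = 0.0138) and ended without 6 h replicate 4 (adjusted p = 0.0762). At 72 h Zfp36 stood 0.91 ± 0.21 above 24 h, its lowest treated time (adjusted p = 0.0264). Like 18 h against 6 h, this comparison was chosen after the values were seen. Zfp36 was the only member probe set called there (0.324% of all), and the call ended without 24 h replicate 1 (adjusted p = 0.144). The window changes were 0.58 ± 0.17 at 6-18 h (adjusted p = 0.0242), which ended without Ctr replicate 3 (adjusted p = 0.131), and 0.85 ± 0.17 at 72-168 h (adjusted p = 6.60e-04).

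Dusp1 encodes MAP kinase phosphatase 1, which removes phosphate from the stress-activated kinases p38 and JNK in the nucleus. The gene lies at chr10:17184853-17187646 of GRCr8. Its RefSeq promoter window, chr10:17184603-17184902 on the plus strand, is printed because among the 6 genes it alone holds the cyclic AMP response motif TGACGTCA, found in 1.83% of all windows. Capitals mark TGACGTCA at 124 to 117 bases before the start and the NF-kappaB motif match GGGACCGCCC at 50 to 41 bases before it.
Dusp1: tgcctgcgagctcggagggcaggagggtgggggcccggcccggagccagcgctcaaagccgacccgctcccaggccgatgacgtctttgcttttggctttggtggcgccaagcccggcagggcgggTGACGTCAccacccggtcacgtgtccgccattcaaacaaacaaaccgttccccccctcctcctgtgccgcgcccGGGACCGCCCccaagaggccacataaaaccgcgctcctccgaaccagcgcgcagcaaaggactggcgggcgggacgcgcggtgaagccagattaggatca
The glucocorticoid receptor consensus, GNACA and TGTNC around 3 free bases on either strand, was in 0 of the 8 windows of the 6 genes and in 0.439% of all windows. Its stricter form, GAACA and TGTTC around 3 free bases, was in 0.0508% of all. No match says only that these letters are not in these 300 bases.

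On S74351_s_at, the brightest of its 3 short-course probe sets, Dusp1 signal was 3503, 2932 and 1901 at 0.25 h and 2676, 2557 and 2356 at 5.5 h, against 742, 541, 548 and 580 in Ctr. All of these treated arrays exceeded Ctr. The 0.25 h difference of 2.11 ± 0.54 did not pass (adjusted p = 0.0726), whereas that at 5.5 h, 2.02 ± 0.54, did (adjusted p = 0.0122) and held without any 1 array. At 2 h the arrays read 4684 and 1781, and the call (2.21, adjusted p = 0.0156) ended without replicate 1 (adjusted p = 0.309). Likewise the calls at 0.5 h (1.83, adjusted p = 0.0288) and 4 h (1.56, adjusted p = 0.0419) ended without replicate 3 of the time (adjusted p = 0.178 and 0.249). At 6 h the arrays read 3060, 549 and 2376, so that 1 of them lay in the Ctr range. At 12 h both arrays read 296, below every Ctr array, with a change of -0.94 ± 0.61 that was not called (adjusted p = 0.572).

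Over windows Dusp1 was higher by 1.66 ± 0.43 at 0.25-0.75 h (adjusted p = 0.0235) and by 1.46 ± 0.39 at 4-8 h (adjusted p = 0.00576). The early call ended without Ctr replicate 3 (adjusted p = 0.106), and those of S81478_s_at (1.65) and U02553cds_s_at (1.31) did so too (adjusted p = 0.220 and 0.195). Without the 9 low-correlation arrays none of the 3 probe sets was called in either window, with 1.62 and 1.07 on S74351_s_at (adjusted p = 0.0760 and 0.0924). The 4-8 h calls of S81478_s_at and U02553cds_s_at also ended without Ctr replicate 3 (adjusted p = 0.115 and 0.0705). Correlations of the 3 probe sets over group means were 0.955 to 0.969.

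Over the long course Dusp1 stood further above Ctr late than early. On 1368146_at its signal was 1169, 1066, 1875 and 1665 at 72 h, 976, 1077, 1295 and 1280 at 96 h and 1221, 941, 1106 and 1648 at 168 h, against 474, 736, 417 and 380 in Ctr. No array at 72, 96 or 168 h overlapped Ctr, while at 6 h, with 1042, 671, 417 and 738, the groups did. The change was 1.47 ± 0.25 at 72 h (adjusted p = 1.77e-04), 1.19 ± 0.25 at 96 h (adjusted p = 0.00164) and 1.25 ± 0.25 at 168 h (adjusted p = 8.89e-04), all holding without any 1 array. At 6-18 h it was 0.55 ± 0.20 and not called (adjusted p = 0.0779). At 72-168 h Dusp1 stood 0.76 ± 0.14 above 6-18 h (adjusted p = 7.65e-05), and 1368147_at stood 0.71 ± 0.14 above it (adjusted p = 1.85e-04). The long-course arrays fell into 15 with high and 29 with low signal of the bacterial control transcripts, and within the 29 alone the 1368146_at difference was 0.72 (adjusted p = 0.0201). Among the 29, replicates 1 and 2 stood for 96 h and only replicate 1 for 168 h, with each time weighted equally in a window. On those 29 arrays the call of 1368146_at against Ctr at 96 h (0.92, adjusted p = 0.140) ended, as did those at 10, 24 and 48 h, while that at 72 h did not (1.28, adjusted p = 0.0127). The calls of 1368147_at at 72 and 96 h held on them (1.54 and 1.55). At 168 h, from replicate 1 alone, the changes were 1.17 on 1368146_at and 1.27 on 1368147_at. The difference between 3' and 5' GAPDH probe sets, a sign of RNA quality, also stood higher late: it was 0.30 to 0.44 on the 12 arrays of 72-168 h, -0.09 to 0.63 at 6-18 h and -0.13 to 0.35 in Ctr (log2), with medians of 0.34, 0.15 and 0.08, and its part in the result was not tested. The 48 h calls, 0.96 and 0.94, ended without 48 h replicate 3 (adjusted p = 0.132 and 0.180). That at 10 h (0.79, adjusted p = 0.0461) ended on leaving out any of 11 arrays, with the largest adjusted p of 0.151 without Ctr replicate 4. That at 24 h (0.93, adjusted p = 0.0494) ended on leaving out any of 28, with 0.229 without 24 h replicate 2.

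Tsc22d3 encodes GILZ, a leucine zipper protein that binds NF-kappaB and AP-1 subunits and is among the best known glucocorticoid-induced proteins. It lies at chrX:109006410-109066389 of GRCr8 and was measured in the long course only. Its signal on 1367771_at was 561, 727, 391 and 702 at 6 h, 746, 614, 871 and 709 at 10 h and 980, 1158, 1017 and 825 at 48 h, against 266, 183, 309 and 248 in Ctr. All 40 treated arrays of the course lay above the highest Ctr array, which held for no other member probe set. How many of all probe sets did the same is not given. Tsc22d3 was called higher at each of the 10 times. The smallest change was 1.05 ± 0.24 at 24 h (adjusted p = 0.0157), where the arrays read 448, 820, 432 and 562, and the largest was 1.87 ± 0.24 at 48 h, a 3.65-fold difference (adjusted p = 3.33e-06). Only the 24 h call ended on leaving out an array, 24 h replicate 2 (adjusted p = 0.125). The change was 1.32 ± 0.19 at 6-18 h (adjusted p = 1.48e-05) and 1.68 ± 0.20 at 72-168 h (adjusted p = 9.67e-08). The late window stood 0.36 ± 0.13 above the first (adjusted p = 0.0495), a call that ended on leaving out any of 30 arrays and with the high or low bacterial control signal as a block (adjusted p = 0.0613). Within the 29 arrays of low control signal, where only replicate 1 stood for 168 h, Tsc22d3 changed by 1.27 at 6-18 h (adjusted p = 0.00168) and 1.73 at 72-168 h (adjusted p = 1.57e-04).

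**Figure D3:**
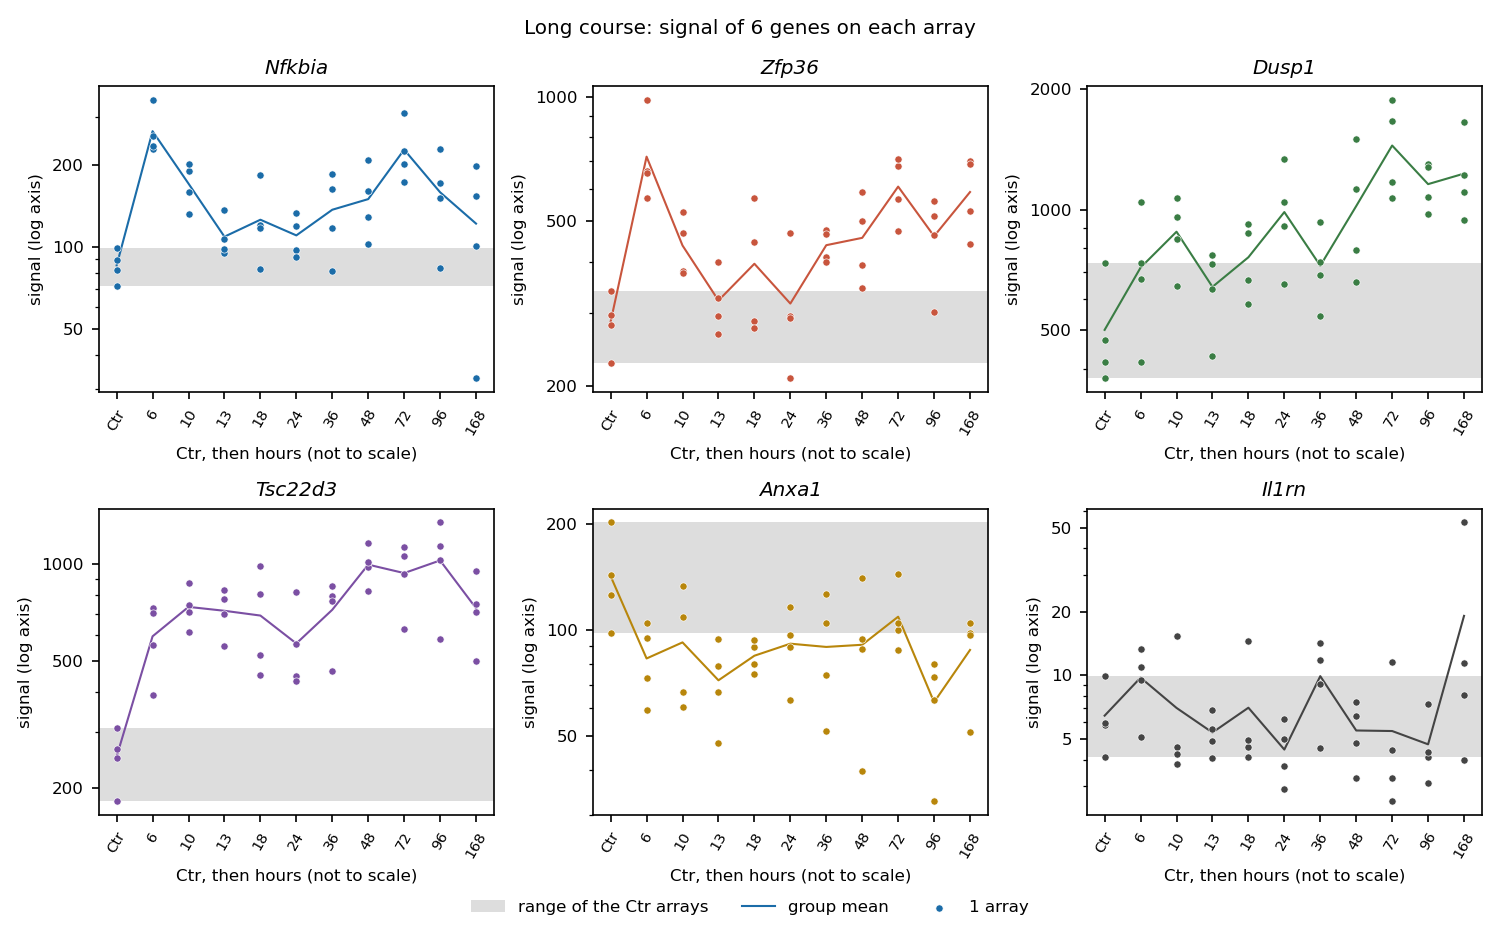
Signal on each long-course array (log axis) of the brightest probe set of the 6 genes, by hours (not to scale) after Ctr; points are arrays, lines join group means and the grey band is the range of the 4 Ctr arrays. All 40 treated arrays of Tsc22d3 lie above the band, 28 of those of Anxa1 lie below it, and Il1rn stays near the floor of the signal.

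Anxa1 encodes annexin A1, a phospholipid-binding protein that, once released, acts on formyl peptide receptors to limit neutrophil recruitment. It lies at chr1:227287713-227306739 of GRCr8. In the short course it was called at 0.5, 2 and 4 h. On S57478cds_s_at its signal was 318, 334 and 344 at 0.5 h, 412 and 354 at 2 h and 382, 275 and 374 at 4 h, against 185, 149, 159 and 122 in Ctr. These treated arrays all lay above Ctr, while at 0.75 h, with 182, 205 and 159, and at 1 h, with 135, 421 and 174, the groups overlapped. At 0.5 h Anxa1 was higher by 0.98 ± 0.27 (adjusted p = 0.0208), a call that ended without replicate 3 (adjusted p = 0.0784). The 2 h change of 1.17 ± 0.31 (adjusted p = 0.012) ended without replicate 1 (adjusted p = 0.160), and the 4 h change of 1.01 ± 0.27 (adjusted p = 0.00982) ended without replicate 3 (adjusted p = 0.0518). The second probe set, rc_AI171962_s_at, was called at the same 3 times, with 1.57 at 0.5 h (adjusted p = 0.0105), a call that held without any 1 array but not without the 9 low-correlation arrays (adjusted p = 0.0880).
At 4-8 h the change was 0.65 ± 0.20 on S57478cds_s_at (adjusted p = 0.0136), which ended without Ctr replicate 4 (adjusted p = 0.0743), and 0.70 ± 0.28 on rc_AI171962_s_at, which was not called (adjusted p = 0.0629). Without the 9 low-correlation arrays the change of S57478cds_s_at was 0.64 and not called (adjusted p = 0.161).

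The mean of Anxa1 lay below that of Ctr at all 10 times of the long course. Its signal on 1367614_at was 66.8, 47.9, 94.6 and 79 at 13 h and 80, 73.7, 32.8 and 63.5 at 96 h, against 126, 143, 202 and 97.9 in Ctr. At these times, and at 18 h, every array lay below the lowest Ctr array, and over the course 28 of 40 treated arrays did while 0 exceeded the highest. Anxa1 was called lower at 96 h, at -0.88 ± 0.23 (adjusted p = 0.0112), and the call ended without either of 2 arrays, 96 h replicate 3 (adjusted p = 0.082) or Ctr replicate 3. The change was -0.59 ± 0.18 at 6-18 h (adjusted p = 0.0329) and -0.56 ± 0.19 at 72-168 h (adjusted p = 0.0449). Without Ctr replicate 3, whose signal of 202 was the highest, neither window was called (adjusted p = 0.213 and 0.254). The later window was also not called without 96 h replicate 3 (-0.51, adjusted p = 0.0748) or with the bacterial control signal as a block (-0.53, adjusted p = 0.0617). Within the 29 arrays of low control signal, where only replicate 1 stood for 168 h, the windows were at -0.69 (adjusted p = 0.0239) and -0.76 (adjusted p = 0.0249). Kupffer cell and macrophage markers moved the same way: 3 of 7 measured were called lower in each window, Clec4f at -0.69 and -1.38, Cd68 at -0.72 and -0.81 and C1qc at -0.48 and -0.50. The summed signal of the 7 was 1123 to 2755 at 6-18 h, 1242 to 3603 at 72-168 h and 2544 to 3110 in Ctr, and the part of these cells in the Anxa1 values was not tested.

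Il1rn encodes the interleukin-1 receptor antagonist, a secreted protein that occupies the receptor without signalling. It lies at chr3:27509836-27525738 of GRCr8. Among the short-course members it showed the largest single change. Its signal on M63101cds_at was 583, 753 and 1729 at 0.5 h, 2023 and 1754 at 2 h and 1120, 656 and 2686 at 4 h, against 44.2, 188, 85.9 and 47.1 in Ctr. All of these arrays lay above Ctr, and so did every array at 11 of the 16 times, again without the share of all probe sets that did so. The change was 3.08 ± 0.74 at 0.5 h (adjusted p = 0.00903), 4.10 ± 0.84 at 2 h, a 17.1-fold difference (adjusted p = 0.002), and 3.53 ± 0.74 at 4 h (adjusted p = 0.00143). The 4 h call held without any 1 array. Those at 0.5 h and 2 h ended without 0.5 h replicate 3 (adjusted p = 0.0691) or 2 h replicate 1 (adjusted p = 0.0585).
Il1rn replicates then parted. The arrays read 330, 374 and 3581 at 7 h, and 401, 552 and 2771 at 8 h. The 5 h call (3.26, adjusted p = 0.0162) ended without replicate 2 (adjusted p = 0.519), and those of 7 h (2.86, adjusted p = 0.0152) and 8 h (3.00, adjusted p = 0.00824) ended without replicate 3 of the time (adjusted p = 0.237 and 0.114). All of these left-out arrays are among the 9 of low correlation. At 5.5 h the arrays were close, 474, 538 and 467, with a change of 2.23 ± 0.74 (adjusted p = 0.0443) that ended without replicate 2 (adjusted p = 0.134).

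Over the window, Il1rn was 2.83 ± 0.54 above Ctr at 4-8 h (adjusted p = 2.53e-04), with all 17 arrays above the highest Ctr array, and without the 9 low-correlation arrays it was 1.97 (adjusted p = 0.0365). At 0.25-0.75 h it was 1.81 ± 0.59 and not called (adjusted p = 0.0699). Signal at 18 h, 326, 217 and 333, was still above every Ctr array, but the change of 1.51 ± 0.74 was not called (adjusted p = 0.517). The single long-course Il1rn probe set, 1387835_at, read from 2.55 to 52.9 on the treated arrays and from 4.1 to 9.98 in Ctr, under the filter, and was not tested.

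**Figure D4:**
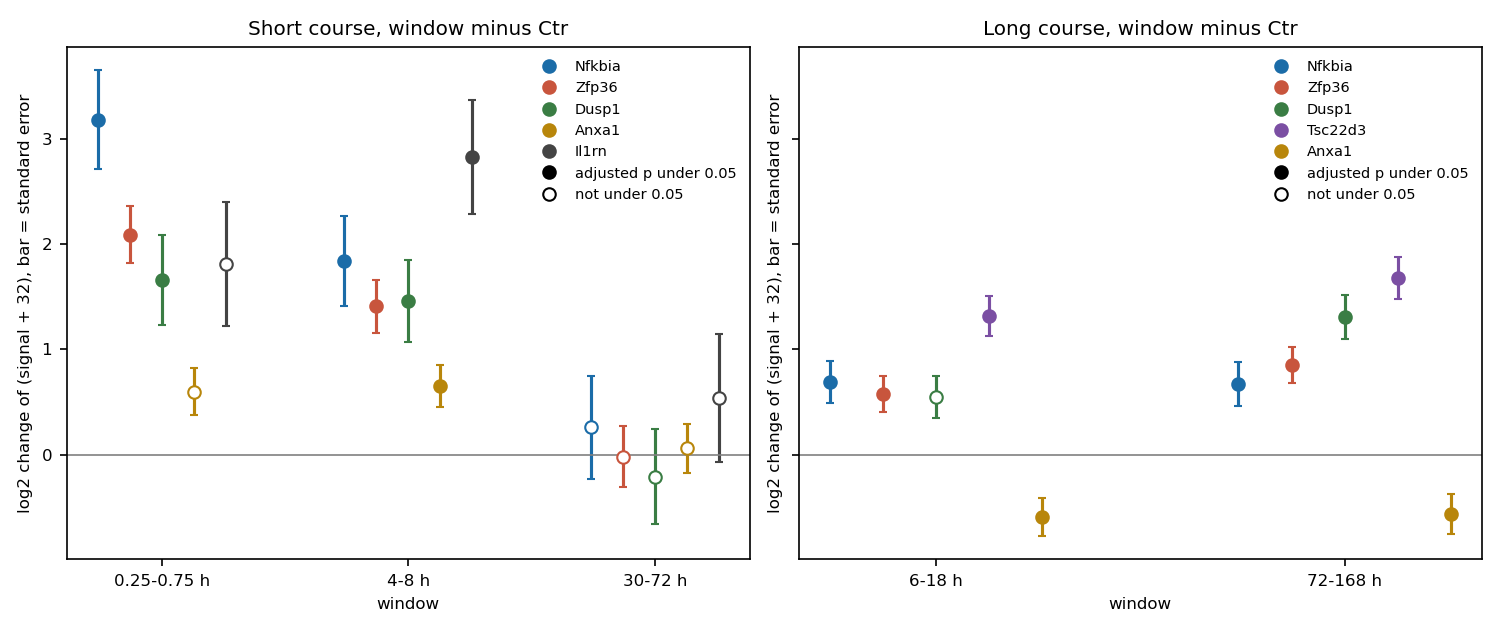
Change of log2(signal + 32) from Ctr by window for the brightest tested probe set of each gene, with the short course on the left and the long course on the right; bars are standard errors, filled points have adjusted p under 0.05 and open points do not. Nfkbia is the highest point at 0.25-0.75 h and Il1rn at 4-8 h; Tsc22d3 is the highest in both long-course windows and Anxa1 lies below 0.

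How the 4-8 h level stood to the 0.25-0.75 h level was compared between genes over arrays, by permuting arrays between windows with exact enumeration in the short course. Arrays of different times in a window were pooled, so the p-values count differences between those times as spread between arrays. At 4-8 h against 0.25-0.75 h, the mean over arrays of the brightest probe set differed by -1.36 for Nfkbia, -0.68 for Zfp36, -0.21 for Dusp1, 0.05 for Anxa1 and 1.00 for Il1rn. Of 10 pairs of genes, 8 differed in this shift after adjustment over the 10 tests. The widest gap was Nfkbia less Il1rn, -2.35 (17 arrays against 9, two-sided exact permutation test, adjusted p = 1.28e-05), and 14 of the 17 later arrays lay below every earlier array in the ratio of the 2 genes. Zfp36 less Il1rn was -1.68 (adjusted p = 5.59e-04, exact permutation test) and Nfkbia less Zfp36 was -0.67 (adjusted p = 0.0177, exact permutation test). Zfp36 less Dusp1 (-0.48, adjusted p = 0.0922) and Dusp1 less Anxa1 (-0.26, adjusted p = 0.402) were not separated by the exact permutation test. Anxa1 less Il1rn (-0.95, adjusted p = 0.0226, exact permutation test) ended without 0.25 h replicate 3 (-0.73, adjusted p = 0.0692). Without the 9 low-correlation arrays the widest gap was -2.41 (adjusted p = 4.91e-05).

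At 72-168 h against 6-18 h of the long course the shift was -0.02 for Nfkbia, 0.28 for Zfp36, 0.76 for Dusp1, 0.36 for Tsc22d3 and 0.02 for Anxa1. Of 10 pairs, 2 differed over 12 later and 16 earlier arrays by a permutation test with 100000 resamples: Nfkbia less Dusp1 (-0.78, adjusted p = 0.0155) and Dusp1 less Anxa1 (0.73, adjusted p = 0.0012). Within the arrays of low bacterial control signal the gaps were -0.57 (adjusted p = 0.371, exact permutation test) and 0.67 (adjusted p = 0.0242). Within those of high signal they were -0.93 and 0.65 (adjusted p = 0.238 for both, exact permutation test). As in the short course, arrays of different times were pooled within each window. These comparisons of genes were chosen after the values were seen.

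At 6, 18, 48 and 72 h both courses were sampled. Zfp36 changed by 1.30 in the short course (adjusted p = 0.0139) and by 1.22 in the long course (adjusted p = 2.00e-04) at 6 h, and Nfkbia by 1.34 (adjusted p = 0.147) and 1.33 (adjusted p = 7.37e-04). By 72 h the values lay apart: Dusp1 was at -0.36 in the short course (adjusted p = 0.987) and 1.47 in the long course, Zfp36 at -0.34 (adjusted p = 0.947) and 1.00, and Nfkbia at -0.02 (adjusted p = 0.998) and 1.12. At 18 h no member measured in both courses was called in either. The difference between courses was not tested, since array design, scaling and Ctr arrays differ with the course and cannot be told apart from it.

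Of the inflammatory mRNAs that Zfp36 protein is known to target, together with decay factors, 8 of 14 measured genes were higher at 0.25-0.75 h, where 2.47% of all probe sets were, with a median change of 1.59 beside 0.08 over all probe sets. Ccl3 was higher by 4.00 ± 0.62 (adjusted p = 1.95e-04) and Il1b by 3.02 ± 0.44 (adjusted p = 8.52e-05), and Cxcl2 by 3.12 ± 0.75 (adjusted p = 0.0177), which ended without Ctr replicate 3 (adjusted p = 0.0853). Ccl3 and Cxcl2 are leukocyte-attracting chemokines. Zfp36 and these mRNAs were high in the same window. At 4-8 h, where 16.4% of all probe sets were higher and 10.5% lower, 2 of the 14 were higher, Fos (0.61) and Il10 (0.46), and 1 lower, the paralog Zfp36l1 (-0.87, adjusted p = 0.00975), and each ended without 1 Ctr array (adjusted p = 0.219, 0.179 and 0.0563), that of Il10 on leaving out any of 33 arrays. Without the 9 low-correlation arrays 3 of 14 were called at 0.25-0.75 h and Zfp36l1 alone at 4-8 h (-1.32). Zfp36l1 was lower in the long course too, at -0.82 in the 6-18 h window (adjusted p = 6.93e-04), and 0 of 15 genes of the list were called higher in either window.

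In the interleukin-1 system, to which the Il1rn product belongs, the agonists Il1b (3.02) and Il1a (1.78 ± 0.37, adjusted p = 0.00565) were the 2 of 10 measured genes higher at 0.25-0.75 h (2.47% of all probe sets). Leaving out the 9 low-correlation arrays, Il1b was called (2.94, adjusted p = 0.0458) and Il1a was not (1.75, adjusted p = 0.197). At 4-8 h the signalling receptor Il1r1 (1.44 ± 0.41, adjusted p = 0.0086) and the decoy receptor Il1r2 (1.23 ± 0.30, adjusted p = 0.00224) were higher and Il33 was lower (-0.88, adjusted p = 0.0357, and 0.196 without Ctr replicate 3). Of all probe sets, 16.4% were higher and 10.5% lower at 4-8 h. Il1r2 signal exceeded the highest Ctr array on all 17 arrays at 4-8 h, as Il1rn did. Without the same arrays 0 of 10 were called at 4-8 h, with Il1r2 at 1.04 (adjusted p = 0.0577). Il1r1 was also higher at 6-18 h of the long course, by 1.22 ± 0.21 (adjusted p = 1.10e-04). Il1a was lower there at -0.69 (adjusted p = 0.0326, and 0.0935 without Ctr replicate 2) and at 72-168 h at -0.90 (adjusted p = 0.00464), where 4 of 10 were lower (6.01% of all probe sets) and 0 higher.

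Among MAP kinases and phosphatases, the pathway on which Dusp1 acts, 1 of 14 genes was higher at 0.25-0.75 h (2.47% of all probe sets). This was the kinase Map3k8 (1.66 ± 0.32, adjusted p = 0.00319), and without the 9 low-correlation arrays 0 of 14 were higher (1.45 for Map3k8, adjusted p = 0.113). At 4-8 h 3 were higher, Mapk14 by 0.91 ± 0.19 (adjusted p = 6.11e-04), Map3k8 by 0.91 and Mapkapk2 by 0.63, and 3 lower, beside 16.4% and 10.5% of all probe sets. The last 2 of these rises ended without 1 Ctr array (adjusted p = 0.102 for Map3k8 and 0.129 for Mapkapk2), and without the 9 low-correlation arrays 0 genes were higher and 2 lower. The related phosphatase Dusp6, which acts on ERK kinases, moved opposite to Dusp1: it was -1.58 ± 0.43 at 4-8 h (adjusted p = 0.00581) and, in the long course, -0.78 at 6-18 h (adjusted p = 0.0383, and 0.242 without Ctr replicate 1) and -1.41 ± 0.26 at 72-168 h (adjusted p = 1.39e-04). On all 12 arrays at 72-168 h Dusp6 signal lay below every Ctr array, whereas that of Dusp1 lay above. Mapk14, which encodes a p38 kinase, was higher in both long-course windows, by 0.67 and 0.63. Of the 18 genes measured in the long course, 4 were lower at 6-18 h and 5 at 72-168 h, with 1 higher each time. Over all probe sets 4.67% and 6.01% were lower.

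The NF-kappaB and receptor signalling list, around Nfkbia, had 5 measured genes in the short course and 19 in the long course. Cd14, a coreceptor for bacterial lipopolysaccharide, was the single gene called in the short course, higher by 1.24 at 0.25-0.75 h (adjusted p = 0.0378) and by 2.01 ± 0.32 at 4-8 h (adjusted p = 2.74e-05), with all 17 arrays above Ctr at 4-8 h. The early call ended without Ctr replicate 4 (adjusted p = 0.168) and without the 9 low-correlation arrays (adjusted p = 0.170), and the later call held (1.81, adjusted p = 0.00579). Chuk, an IkappaB kinase subunit gene, was higher at 6-18 h of the long course by 0.72 (adjusted p = 0.0283) and Irak1 by 0.36 (adjusted p = 0.0384), where 4.64% of all probe sets were higher. Both ended without 1 Ctr array (adjusted p = 0.188 and 0.313), and 0 of 19 were called at 72-168 h.

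Of the annexin, formyl peptide receptor and eicosanoid enzyme genes around Anxa1, 0 of 15 were called at 0.25-0.75 h. At 4-8 h, 16.4% of all probe sets were higher and 10.5% lower. In this list Alox5ap, needed for leukotriene synthesis, was higher by 0.98 (adjusted p = 0.00675) and S100a10 by 0.83 (adjusted p = 0.0385), and Anxa5 was lower (-0.39, adjusted p = 0.0421). Each of these 3 calls ended without 1 Ctr array (adjusted p = 0.0551, 0.124 and 0.206) and without the 9 low-correlation arrays (adjusted p = 0.0686, 0.171 and 0.241). Of 20 measured in the long course, 6 were lower and 0 higher in both windows, where 4.67% and 6.01% of all probe sets were lower. Anxa3 fell by 1.00 ± 0.12 at 6-18 h (adjusted p = 4.70e-07) and fell by 1.22 ± 0.12 at 72-168 h (adjusted p = 2.79e-09), below every Ctr array on all 28 arrays. The prostaglandin synthase Ptgs1 was at -0.64 and -0.72, and the phospholipase Pla2g4a at -0.60 and -0.59, the last 2 ending without Ctr replicate 4 (adjusted p = 0.0781 and 0.0656). The median of the 20 genes was -0.28 and -0.20, beside -0.03 over all probe sets.

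Other genes raised by glucocorticoids in various cells gave 2 of 15 higher at 0.25-0.75 h (2.47% of all probe sets), Cebpd (2.57 ± 0.62, adjusted p = 0.0182) and Sgk1 (1.40 ± 0.32, adjusted p = 0.0111). Both ended without Ctr replicate 4 (adjusted p = 0.0922 and 0.0783). In that window 1 was lower, Pdk4 (-1.91 ± 0.50, adjusted p = 0.0284), which ended without Ctr replicate 2 (adjusted p = 0.0840). At 4-8 h 5 were higher and 2 lower, beside 16.4% and 10.5% of all probe sets. Klf9, a transcription factor, was among those 5 with 1.16 ± 0.26 (adjusted p = 0.00108). Without the 9 low-correlation arrays 0 of 15 were called at 0.25-0.75 h. At 4-8 h 0 were then higher and 2 lower, with Klf9 at 0.79 (adjusted p = 0.0686). Like Tsc22d3, the receptor cochaperone Fkbp5 was higher in both long-course windows, by 1.73 ± 0.26 at 6-18 h (adjusted p = 1.60e-05) and 2.03 ± 0.26 at 72-168 h (adjusted p = 6.29e-07), above every Ctr array on all 28 arrays. In these windows 8 of 21 genes of the list were higher, and 4 and 2 were lower. Over all probe sets 4.64% and 4.81% were higher, and 4.67% and 6.01% lower. Tsc22d1, a relative of Tsc22d3, went the other way: its short-course change at 4-8 h was -1.37 ± 0.31 (adjusted p = 0.00123), below Ctr on all 17 arrays, and the long-course change at 6-18 h was -1.34 ± 0.24 (adjusted p = 2.29e-04). Pdk4 was also lower, at -2.73 ± 0.47 in the 4-8 h window (adjusted p = 6.76e-05). Its long-course changes were -1.25 ± 0.22 at 6-18 h (adjusted p = 1.31e-04) and -1.42 ± 0.22 at 72-168 h (adjusted p = 1.59e-05), below every Ctr array on all 28 arrays.

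The genes whose group means were most like each member's were ranked by Pearson correlation over the 17 short-course or the 11 long-course means. These are descriptions of points that share arrays. Nearest to Nfkbia among 3579 short-course genes were Rhob (r = 0.972), Myc (0.962) and Ppp1r15a (0.957). Nearest to Zfp36 were Ppp1r15a (0.949), Nfkbia (0.947) and Rhob (0.945), so that 2 of the 3 were shared with Nfkbia. Il1rn lay nearest to Cd14 (0.931), Sod2 (0.908) and Il1r2 (0.892), Anxa1 to Slc2a1 (0.953), Plaur (0.952) and Slc11a2 (0.952), and Dusp1 to Kars1 (0.949), Slc4a7 (0.940) and Sub1 (0.937). Correlations of Il1rn with the other members were 0.626 to 0.782.
Among 8069 long-course genes Tsc22d3 lay nearest to Rasgef1b (0.983), Shld2 (0.946) and Bbox1 (0.938) and Dusp1 to Pak3 (0.965), Obp3 (0.904) and Akr1c1 (0.895). Zfp36 lay nearest to Lpin1 (0.936), Ccn2 (0.927) and Tob2 (0.917), Nfkbia to Gpat4 (0.923), Polg2 (0.890) and Asf1a (0.873), and Anxa1 to Josd1 (0.879), Sun1 (0.865) and Kmt5c (0.845). Nfkbia and Zfp36 correlated with each other at 0.797 over these 11 means.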

How the data were processed

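Liver RNA was measured on 91 arrays. The authors deposited 1 signal intensity per probe set and array on a linear scale, and neither scanner software nor probe summary is given in the sources used here. The deposited intensities have a common trimmed mean per array, 801 for the short and 150 for the long course, and 6 h replicate 3 of the short course was rescaled to the common value. Groups were taken from the array titles. In the long course 1 array titled 96 h is described as 72 hours, and 1 titled 48 h carries the short-course wording, and both were kept by title. No 2 arrays of a course were identical (0 pairs).

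Affymetrix control probe sets and those under the 30th percentile of mean signal were left out. Group means of log2(signal + 32) were fitted with limma 3.58.1, run in R 4.3.3, using every array of a course and a variance trend. Two-sided p-values received the Benjamini-Hochberg adjustment across all 6118 or 11106 probe sets tested. Windows are unweighted means of their times. The code was tested on simulated data. In the platform annotation 7006 and 12783 probe sets had 1 symbol, 308 and 312 several and 1426 and 2771 none, and only the first kind was named. A gene stands for its brightest tested probe set unless a probe set is named. Genes outside the 6 were named as the 3 most alike in group means and up to 3 per direction in each of 6 pathway lists and window, with Tat. The 6 genes and all lists were chosen with earlier results of these data known. Promoter windows and gene positions are from RefSeq (GRCr8), and all 6 genes matched. Permutation tests ran in Python 3.11.15 with scipy 1.17.1. The spike-in batch of the long course had 15 arrays with high and 29 with low bacterial control signal, parted at a log2 level of 9.6. Low-correlation arrays had a mean correlation under 0.9 over the probe sets tested. Both groupings were defined after the arrays were seen.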

Additional observations from a re-analysis of the deposited data

Results flagged for a closer look

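Nfkbia, Zfp36, Dusp1 and Anxa1 were each compared between courses at the 4 shared times. In 3 cases every array of a gene lay on opposite sides of its Ctr mean in the 2 courses. Zfp36 at 72 h changed by -0.34 in the short course (0 of 2 arrays above the Ctr mean) and by 1.00 in the long course (4 of 4 arrays). Dusp1 at 72 h changed by -0.36 in the short course and by 1.47 in the long course, over the same numbers of arrays. Neither of these short-course values passed the threshold. Anxa1 at 6 h changed by 0.45 in the short course (3 of 3 arrays above) and by -0.58 in the long course (0 of 4 above), and neither value passed the threshold. The difference between courses was not tested.

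In 87 groups of 4 arrays checked for 1 far value, 3 had an array apart from the rest, where chance alone gives about 1 in 20. Anxa1 at 168 h of the long course read 51.4 in replicate 1, while the others read 96.9 to 105. The untested long-course Il1rn probe set read 15.4 in 10 h replicate 2, with the others at 3.81 to 4.6, and 14.5 in 18 h replicate 4, with the others at 4.11 to 4.95.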

How the results depend on the processing

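A smaller and a larger added constant, no filter and one at the 50th percentile, quantile normalization, median centring, a fit without variance trend, array weights and left-out arrays turned no called change of a member round. In the short course, 56 calls at single times became 29 without the 9 low-correlation arrays, 25 with 6 h replicate 3 on its own scale, and 33 to 63 on leaving out 1 array. The 7 calls at 0.25-0.75 h became 3 without the low-correlation arrays and 4 to 9 on leaving out 1 array, and the 9 at 4-8 h became 3 without the low-correlation arrays. The 36 pathway gene calls became 10 without those arrays and 20 to 40 on leaving out 1. No label ties replicate numbers together, and not every equal-numbered pair correlated above 0.1: the median correlation of deviations was -0.012 for equal and 0.001 for other numbers in the short course, and 0.058 and -0.015 in the long course. As a hint from the data, 23 of 44 long-course arrays (15 of 47 short-course ones) correlated best with their own number, and replicate 4 of all 11 groups made up 11 of the 15 arrays of high spike-in signal. With a replicate block the 56, 7 and 36 calls became 32, 4 and 21, and no other count moved by over 1.5 times. In the long course, the 15 arrays of high spike-in signal alone gave 0 calls for each count of member probe sets and 2 for pathway genes. Leaving out 1 array gave 1 to 5 of the 4 calls at 6-18 h, 0 to 2 at 18 h against 6 h and at 72 h against 24 h (2 with array weights for the last), 35 to 56 of 55 pathway gene calls, and 2 to 5 pairs of genes that differ between windows. The causes were not tested. The number of arrays per time, 2 to 4, limits every single-time value.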
